A study of Mus musculus with 12 samples.

Results

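Gadd45, Btg and p53-linked growth arrest genes, 10 of 35496 in the deposited table, were followed through noise in the mouse cochlea, the coiled organ that senses sound. They were chosen by symbol: the 3 Gadd45 genes (Gadd45a, Gadd45b and Gadd45g), Btg1, Btg2, the cyclin-dependent kinase (CDK) inhibitor gene Cdkn1a, Mdm2, Trp53inp1, Plk2 and the cyclin gene Ccng1. Each symbol matched a single Ensembl gene, and all 10 were among the 19497 genes that passed the filter on low counts. The tissue came from FVB/NCrl mice, an inbred strain, at 60 days after birth. Awake mice had spent 30 minutes at 70 dB SPL (ambient sound, the control), 94 dB or 105 dB, and RNA was taken straight afterwards. Each level had 4 libraries, 12 in all, and the labels name no genetic change or drug in any group. Whether each library held 1 animal or a pool, and whether replicates were separate animals, is not stated, so the tests measure the spread between libraries, which may be technical.

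Growth arrest genes slow the cell cycle or hold it while damage or stress is dealt with. The transcription factor p53 switches on many of them, among them Cdkn1a, whose product p21 blocks CDKs, and Mdm2, whose product marks p53 for destruction in a feedback loop. GADD45 proteins are small acidic proteins that bind the kinase MAP3K4 upstream of p38 and JNK, and also PCNA and the CDK1 and cyclin B complex. BTG proteins bind the CCR4-NOT complex, which shortens mRNA tails. Several of these genes are also immediate early or stress genes, which neurons and other cells that seldom divide switch on without p53.

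Promoters are shown first for 3 of the genes that rose (Gadd45g, Btg2 and Cdkn1a), for Gadd45b, a paralogue that did not pass, and for Plk2, which fell, so that their motifs can be set side by side. The sequences are from RefSeq on GRCm38.p6 and run from 175 to 21 bases upstream of the transcription start, 5′ to 3′ on the gene's strand. Capitals mark a TATA box (TATAAA) in Gadd45g and Gadd45b and a cyclic AMP response element (CRE, TGACGTCA) in Btg2 and Plk2. In Cdkn1a they mark letters that match the strict pattern searched for the p53 response element. Neighbouring bases that come close to this pattern without matching it in full were not marked. Cdkn1a has 2 RefSeq starts, and the sequence shown belongs to the first.
Gadd45g, chr13:51846500-51846654, plus strand: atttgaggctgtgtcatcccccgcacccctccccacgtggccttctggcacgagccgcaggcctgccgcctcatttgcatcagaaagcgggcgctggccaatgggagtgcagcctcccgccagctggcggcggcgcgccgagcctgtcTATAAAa
Gadd45b, chr10:80929916-80930070, plus strand: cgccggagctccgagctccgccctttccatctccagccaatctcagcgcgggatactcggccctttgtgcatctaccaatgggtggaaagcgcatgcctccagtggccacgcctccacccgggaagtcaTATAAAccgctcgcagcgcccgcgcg
Btg2, chr1:134079176-134079330, minus strand: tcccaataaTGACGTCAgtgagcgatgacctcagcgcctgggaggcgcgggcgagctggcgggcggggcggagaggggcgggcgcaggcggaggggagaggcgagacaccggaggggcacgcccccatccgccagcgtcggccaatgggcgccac
Plk2, chr13:110394869-110395023, plus strand: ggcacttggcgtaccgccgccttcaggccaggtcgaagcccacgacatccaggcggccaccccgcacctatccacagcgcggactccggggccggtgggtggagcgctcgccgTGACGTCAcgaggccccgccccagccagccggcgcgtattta
Cdkn1a, chr17:29090804-29090958, plus strand: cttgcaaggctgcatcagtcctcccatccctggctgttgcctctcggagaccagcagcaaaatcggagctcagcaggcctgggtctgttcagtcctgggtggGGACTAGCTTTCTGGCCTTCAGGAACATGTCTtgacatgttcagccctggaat

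Motifs were searched on both strands in the whole RefSeq window, 250 bases before to 50 after the start. Of the members 9 had a window (Cdkn1a had 2), 10 windows in all, and Trp53inp1 had none. The CRE stood in 2 of the 10 windows, in Btg2 from 166 bases upstream and in Plk2 from 62 bases upstream, while 1.79% of 32851 windows of this length held one. Btg2 rose and Plk2 fell, so the motif stood in genes of both directions. TATAAA stood in Gadd45b, Gadd45g and Btg1, 3 of 10 windows, against 13.6% of all. The p53 response element, taken as 2 decamers up to 13 bases apart, matched in 1 window, against 0.0731% of all. This was the first window of Cdkn1a (start at base 29090979 of chromosome 17), from 73 bases upstream. The second window of Cdkn1a (start at base 29093769) held no match. The shorter TGACG, which lies within the CRE and was counted with it, stood in the windows of Btg1, Btg2, Mdm2 and Plk2, against 20.8% of all. TGANTCA, the AP-1 site (7.81% of all), the glucocorticoid element (0.475%) and the CArG box of serum response factor (1.63%) matched in none of the 10. A match describes letters only, and a window without one says nothing about binding.

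The depth was 31141706 to 42317781 counts per library, and the members' own counts ran from 414 (Gadd45g in 70 dB replicate 4) to 6438. Together the 10 genes took 0.0681 to 0.077% of counts at 70 dB, 0.0809 to 0.0889% after 94 dB and 0.086 to 0.0931% after 105 dB, with no overlap between the noise groups and the control. The 94 dB libraries differed in makeup: genes of the mitochondrial genome took 2.69 to 3.58% of counts there, against 5.08 to 5.68% in controls and 4.43 to 5.35% after 105 dB. Replicates 3 and 4 at 94 dB stood apart from replicates 1 and 2, with haemoglobin genes at 2.90 and 2.95% of counts against 1.75 and 2.07%. Haemoglobin was as high, at 2.89%, in 105 dB replicate 3. Mitochondrial genes took 2.69 and 2.73% in 94 dB replicates 3 and 4, against 3.53 and 3.58% in replicates 1 and 2. All markers of the 10 cell type lists were detected, hair cell markers among them, with a summed level of 755 to 954 CPM at 70 dB (CPM, the count scaled to library size by TMM factors), 846 to 1255 after 94 dB and 867 to 1076 after 105 dB. Of 12 hair cell markers 1 was called higher at 94 dB. Spiral ganglion neuron markers summed to 1965 to 2670 CPM in controls, 1965 to 2324 after 94 dB and 2000 to 2198 after 105 dB. Of these 8 genes 2 were called lower and 0 higher at 94 dB. Of 7 bone cell markers 1 was called higher at 94 dB. At 105 dB none of these 3 lists had a called gene. Supporting cell markers summed to 1579 to 1705 CPM in controls, 1200 to 1423 after 94 dB, with no overlap, and 1516 to 1649 after 105 dB; 4 of 8 were called lower and 1 higher at 94 dB and none at 105 dB. Markers of Schwann cells and of the stria vascularis had 2 of 7 lower each at 94 dB (and 1 Schwann cell gene higher), and none called at 105 dB. Those of the stria vascularis summed to 1215 to 1323 CPM in controls, 1055 to 1192 after 94 dB, also with no overlap, and 1216 to 1261 after 105 dB. Schwann cell markers summed to 3007 to 4979, 2467 to 3424 and 2523 to 3535 CPM. Over all genes 13.9% were called higher and 12.2% lower at 94 dB, and 1.11% and 0.508% at 105 dB. Neutrophil markers summed to 7518 to 9354 CPM in the 70 dB libraries, 7749 to 15270 in the 94 dB and 8304 to 9875 in the 105 dB libraries, with 4 of 8 genes called higher at 94 dB and 1 of 8 at 105 dB. Erythroid markers summed to 18150 to 22270, 18840 to 32450 and 22290 to 31440 CPM, with 2 of 7 higher and 1 lower at 94 dB and none called at 105 dB. Markers of dividing cells summed to 860 to 1028, 737 to 956 and 1009 to 1264 CPM, with 1 of 8 higher and 2 lower at 94 dB and none called at 105 dB. Macrophage markers summed to 388 to 453, 493 to 611 and 419 to 463 CPM, with 4 of 7 higher and 1 lower at 94 dB and 1 lower at 105 dB. Their part in the members' changes was not tested. Bulk tissue also cannot tell a change in RNA per cell from a change in the number of cells of a type.

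At ambient sound the members ranged widely in level per kb of exon. Ccng1, a cyclin gene induced by p53, was highest at 38.0 ± 3.97 CPM per kb of exon (SD, n = 4), followed by Cdkn1a at 31.7 ± 2.87, Btg2 at 28.5 ± 3.06 and Btg1 at 24 ± 2.34. Gadd45a (17.8 ± 1.46), Mdm2 (15.4 ± 1.34), Trp53inp1 (14.4 ± 1.15), Gadd45b (13.7 ± 0.531) and Gadd45g (13.1 ± 1.82) formed a lower set, and Plk2, a polo-like kinase gene, was lowest at 5.33 ± 0.483. Libraries of each gene overlapped those of its neighbour in this order, except between Btg1 and Gadd45a and between Gadd45g and Plk2. The members were compact genes. All 10 spanned less of the genome than the median of 23980 bases over 16044 coding genes tested, with a median of 5802 bases, and 8 had fewer than the median of 8 exons.

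**Figure D1:**
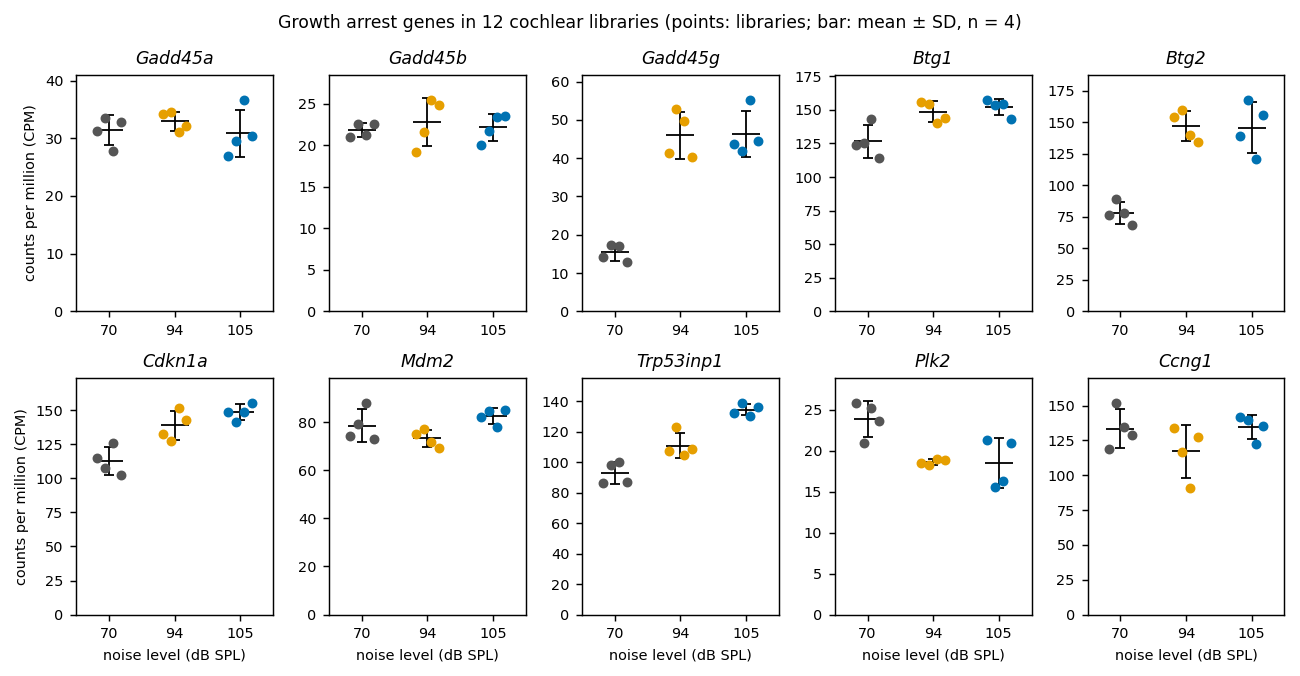
CPM (vertical axis, from 0, linear) of each gene in the 12 libraries by noise level (horizontal axis, dB SPL); points are libraries and bars are the mean ± SD of 4. Gadd45g and Btg2 lie apart from the 70 dB libraries at both noise levels, Trp53inp1 is highest at 105 dB, and Gadd45a and Gadd45b overlap at all levels.

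The first question was what 94 dB noise did to these genes against ambient sound. Gadd45g rose 2.98-fold and Btg2 1.89-fold, Cdkn1a, Trp53inp1 and Btg1 rose by less, and Plk2 fell. By edgeR's quasi-likelihood test, with p-values adjusted by Benjamini and Hochberg and a threshold of 0.05, 5 of 10 members passed as higher and 1 as lower, where 13.9% of all 19497 genes tested passed as higher and 12.2% as lower. Libraries of the 2 groups did not overlap in 4 members that were higher and 1 that was lower, against 13% and 12.3% of all genes. The median log2 fold change of the members was 0.15, beside -0.018 over all genes. Without 94 dB replicates 3 and 4 the members' count was 4 higher and none lower, and 7.97% of all genes then passed (5.12% higher and 2.85% lower).

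The second comparison set 105 dB against the same 70 dB libraries, so the 2 comparisons share their controls. Far fewer genes passed here: 1.11% of all genes were higher and 0.508% lower. Of the members 4 rose, namely Gadd45g, Btg2, Cdkn1a and Trp53inp1, and none passed as lower (at an unadjusted p under 0.05 Plk2 alone was lower, and DESeq2 called Plk2 alone lower). The same 4 had libraries with no overlap, against 5.78% of all genes that lay wholly higher and 5.03% wholly lower. The members' median log2 fold change was 0.17, beside -0.0039 over all genes. Between 105 and 94 dB 1 of 10 members was called, as higher, where 17.3% of all genes passed (8.06% higher and 9.23% lower). In that comparison 2 members lay wholly higher and none wholly lower, against 10.5% and 10.8% of all genes. Without 94 dB replicates 3 and 4 no member passed edgeR's adjusted test, and 1.07% of all genes did (0.282% higher and 0.792% lower). At an unadjusted p under 0.05 that fit had 2 members higher, Cdkn1a and Trp53inp1, and DESeq2 on all libraries called 1 member.

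**Figure D2:**
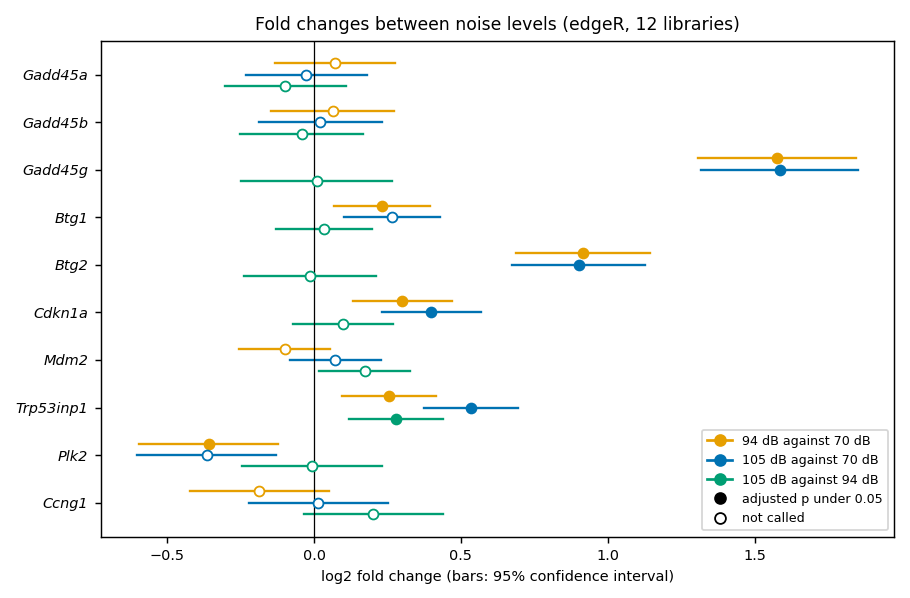
Log2 fold change (horizontal axis) of each gene in the 3 comparisons, with 95% confidence intervals as bars; filled points passed an adjusted p of 0.05. Gadd45g and Btg2 have nearly the same fold change at 94 and 105 dB, and Trp53inp1 is the member called between 105 and 94 dB.

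Among the GADD45 genes the response was that of a single paralogue. Gadd45g (ENSMUSG00000021453, mm10 chromosome 13, 51846678 to 51848468, plus strand, 4 exons), a gene first known as induced by cytokines, read 14.2, 17.3, 17.1 and 12.99 CPM in 70 dB replicates 1 to 4. It read 41.3, 52.8, 49.7 and 40.3 CPM at 94 dB and 43.7, 41.9, 55.2 and 44.4 at 105 dB. Every noise library lay above every control library, and the noise groups overlapped each other. The log2 fold change was 1.58 (SE 0.12; adjusted p = 1.08e-06 by edgeR) at 94 dB and 1.58 (SE 0.12; adjusted p = 1.10e-06) at 105 dB, rank 67 and rank 52 from the highest of all genes tested. Its 105 to 94 dB difference was 0.0084 on the log2 scale, with a 95% interval of -0.25 to 0.27 (adjusted p = 0.969). A smooth trend on GC content and on exon length (all exons of a gene merged) was then removed from each library. With it removed the 94 dB change was 1.18 and the 105 to 94 dB difference 0.29, which did not pass (adjusted p = 0.117 by edgeR).

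Gadd45a and Gadd45b, which share the MAP3K4-binding fold with Gadd45g, showed no such rise. Gadd45a (chromosome 6, 67035096 to 67037457, minus strand), a classical p53 target, read 27.8 to 33.6 CPM in the 70 dB libraries, 31.04 to 34.6 in the 94 dB and 26.9 to 36.6 in the 105 dB libraries. Its intervals of the log2 fold change were -0.13 to 0.28 at 94 dB and -0.23 to 0.18 at 105 dB, which leave out a change of the size of Gadd45g's. Exons of Gadd45a overlap E230016M11Rik on the other strand by 337 bases, and since the use of strand in counting is not given, its values are uncertain; that gene had 64 to 142 counts per library against 947 to 1424 for Gadd45a. Gadd45b (chromosome 10, 80930073 to 80932204, plus strand), known as a target of NF-kB and TGF-beta, read 20.96 to 22.6 CPM in the 70 dB libraries, 19.2 to 25.5 in the 94 dB and 20.03 to 23.5 in the 105 dB libraries. Neither log2 fold change passed (0.063 at 94 dB with an adjusted p of 0.658, and 0.021 at 105 dB with 0.927 by edgeR). For Gadd45b the direction at 94 dB depended on the processing: with the GC and length trend removed it was -0.23 and passed (adjusted p = 0.0418), and without 94 dB replicates 3 and 4 it was -0.093 (adjusted p = 0.600). These 2 libraries read 25.5 and 24.9 CPM, above the other 94 dB libraries at 19.2 and 21.6.

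The makeup of the GADD45 family therefore moved. Per kb of exon, Gadd45g made up 29.4 ± 3.49% of the summed GADD45 level at 70 dB, 54.1 ± 3.18% after 94 dB and 55.6 ± 1.71% after 105 dB (SD over 4 libraries). Its share was 25.2 to 33.4% in control libraries and 50.3 to 57.5% in noise libraries. Gadd45a, the largest part at 70 dB with 39.8 ± 2.76%, was at 26.0 ± 2.49% and 24.6 ± 0.837% after noise. In the BTG pair Btg2 went from 54.2 ± 2.75% at 70 dB to 65.5 ± 0.949% after 94 dB and 64.6 ± 3.78% after 105 dB, again with no overlap between control and noise libraries.

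**Figure D3:**
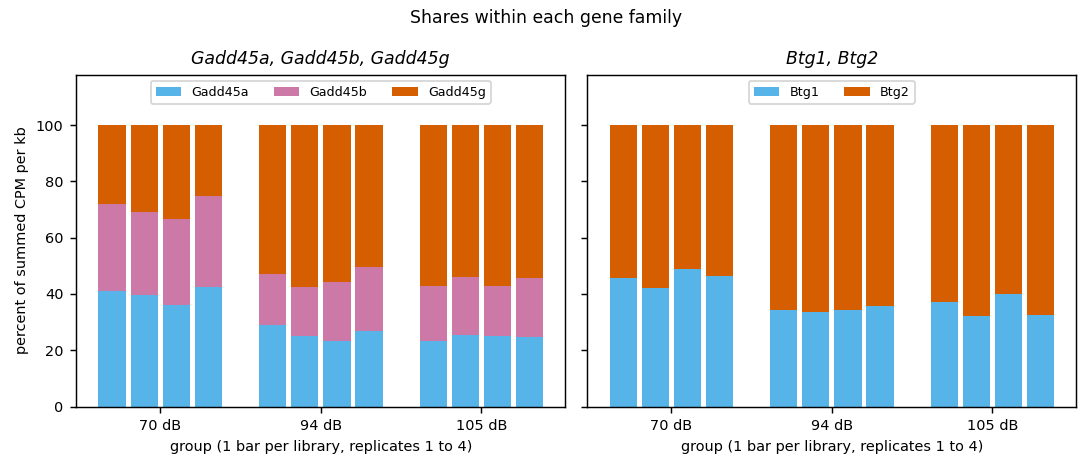
Percent of the summed level per kb of exon (vertical axis) that each gene takes within the GADD45 genes (left) and the BTG genes (right), with 1 bar per library. The Gadd45g share lies at 25.2 to 33.4% at 70 dB and at 50.3 to 57.5% in the noise libraries.

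Btg2 (ENSMUSG00000020423, chromosome 1, 134075170 to 134079120, minus strand, 2 exons), an antiproliferative gene that is both a p53 target and an immediate early gene, read 76.7, 88.9, 78.0 and 68.5 CPM at 70 dB. It read 154, 160, 140 and 135 CPM at 94 dB and 139, 168, 121 and 156 at 105 dB. The lowest noise library, 105 dB replicate 3, still lay above the highest control. The log2 fold changes were 0.91 at 94 dB (SE 0.10; adjusted p = 2.77e-05 by edgeR) and 0.90 at 105 dB (SE 0.10; adjusted p = 6.01e-05), and between the noise levels -0.014 with an interval of -0.24 to 0.21. Its relative Btg1 (chromosome 10, 96617006 to 96622809, plus strand, 2 exons) read 124, 125, 144 and 114 CPM at 70 dB, 156, 155, 140 and 144 at 94 dB and 157, 154, 155 and 143 at 105 dB. Control replicate 3, at 144 CPM, overlapped both noise groups. Btg1 passed at 94 dB, at 0.23 on the log2 scale (adjusted p = 0.0266 by edgeR) and did not at 105 dB with 0.27 (adjusted p = 0.0741). The first call was lost without 70 dB replicate 2 (0.0580) or 4 (0.0776) or 94 dB replicate 2 (0.0574) and with upper-quartile factors (0.0507), in a range of 6.51e-04 to 0.0776. At 105 dB the adjusted p was 0.0219 without 70 dB replicate 3, 0.0262 with the GC and length trend removed, 0.0141 with that and a replicate block, and 0.0161 by DESeq2. Removal of that trend made the 94 dB value of Btg1 0.40.

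Of Cdkn1a, Trp53inp1, Mdm2 and Ccng1, the first 2 rose. Cdkn1a (ENSMUSG00000023067, chromosome 17, 29090976 to 29100727, plus strand, 3 exons) read 115, 108, 126 and 102 CPM at 70 dB, 133, 128, 152 and 143 at 94 dB and 149, 141, 149 and 155 at 105 dB. The noise libraries lay above the controls without overlap, though at 94 dB the gap was from 126 to 128 CPM. Its log2 fold changes were 0.30 (SE 0.075; adjusted p = 0.00812 by edgeR) and 0.40 (SE 0.075; adjusted p = 0.0101), and the 105 to 94 dB difference of 0.098 did not pass (interval -0.071 to 0.27). Without 94 dB replicates 3 and 4 the 94 dB call ended (0.127), as it did with the GC and length trend removed (0.0557). Cdkn1a overlaps AC167363.2 on the other strand, which had only 2 to 15 counts per library.

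Trp53inp1 (ENSMUSG00000028211, chromosome 4, 11156431 to 11174379, plus strand, 5 exons), which encodes a p53-induced nuclear protein with a role in autophagy, was the member whose level differed between all 3 groups. It read 86.2, 98.5, 100 and 86.9 CPM at 70 dB, 107, 123, 105 and 108 at 94 dB and 133, 139, 131 and 136 at 105 dB. The 3 groups did not overlap. Against 70 dB the log2 fold change was 0.26 at 94 dB (SE 0.071; adjusted p = 0.0152 by edgeR) and 0.53 at 105 dB (SE 0.071; adjusted p = 4.80e-04). The direct difference of 105 from 94 dB was 0.28 (SE 0.071; adjusted p = 0.0143), and Trp53inp1 was the only member to pass. This last call was lost without 94 dB replicate 3 (0.0557), without 94 dB replicates 3 and 4 (0.194), and once the GC and length trend was removed (0.380, or 0.318 with a replicate block as well). With that trend removed the 94 dB change of Trp53inp1 was 0.52, near its 105 dB change of 0.61, while the calls against 70 dB held under all 22 alternatives.

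Mdm2 and Ccng1, both textbook p53 targets, did not pass in any comparison. Mdm2 (chromosome 10, 117688875 to 117710758, minus strand) read 72.9 to 87.9 CPM in the 70 dB libraries, 69.03 to 76.99 in the 94 dB and 78.1 to 85.2 in the 105 dB libraries. All 105 dB libraries lay above all 94 dB libraries, but the difference of 0.17 on the log2 scale had an adjusted p of 0.0931 by edgeR, and 10.5% of all genes lay apart in this way. Against 70 dB its intervals were -0.25 to 0.055 and -0.082 to 0.23. Ccng1 (chromosome 11, 40748552 to 40755311, minus strand) read 119 to 152 CPM in the 70 dB libraries, 90.8 to 134 in the 94 dB and 123 to 142 in the 105 dB libraries, with intervals of -0.42 to 0.050 and -0.22 to 0.25.

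Plk2 (ENSMUSG00000021701, chromosome 13, 110395046 to 110400844, plus strand, 14 exons), a kinase gene induced by p53 and, in neurons, by activity, went the other way. It read 25.8, 21.0, 25.3 and 23.6 CPM at 70 dB and 18.6, 18.2, 19.0 and 18.8 at 94 dB, with no overlap. At 105 dB it read 21.3, 15.6, 16.3 and 20.9 CPM, and replicate 1 there overlapped the lowest control. The log2 fold change was -0.36 at 94 dB (SE 0.10; adjusted p = 0.0192 by edgeR) and -0.37 at 105 dB (SE 0.10; adjusted p = 0.0865). The 94 dB call ended without 70 dB replicate 1 (0.0536) or 3 (0.0561), without 94 dB replicates 3 and 4 (0.0976) and once the GC and length trend was removed (0.0670). The log2 fold changes there were -0.31, -0.32, -0.38 and -0.28. At 105 dB Plk2 passed by DESeq2 (0.0271) and with a replicate block and the trend removed (0.0390).

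The genes whose course over the 12 libraries was most like that of each called member were found by the root mean square difference of log2 CPM, each gene centred on its own mean, among 14942 other genes. For Gadd45g these were Arrdc2, the salt-inducible kinase gene Sik1 and the glucocorticoid-induced gene Tsc22d3, at 0.12, 0.15 and 0.20 on the log2 scale, where the median gene differed by 0.78. For Btg2 they were the kinase gene Nuak2, Slc25a25 and the AP-1 gene Jun at 0.12, 0.15 and 0.15 (median 0.48). Cdkn1a lay nearest to Siah2, Tsc22d1 and Sap30 (0.086 to 0.097), Trp53inp1 to Fzd4, Ifrd1 and Kcnj5 (0.070 to 0.089), Btg1 to Ankrd10, Eed and Zfp592 (0.053 to 0.063) and Plk2 to Gulp1, Bmp2 and Lrrn3 (0.095 to 0.10). The last 4 members varied less themselves, with a root mean square of 0.15 to 0.23 around their own means against 0.76 for Gadd45g. Since the named genes were picked as the nearest, their distance below the median was fixed by that choice. The likeness was described only and was not tested.

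Other genes of the same pathways were read from lists of 100 distinct genes tested. Of 34 further p53 targets 7 rose and 3 fell at 94 dB (median log2 fold change 0.066) and 2 rose and none fell at 105 dB (median 0.025), with 26.1% and 1.62% of all genes called in either direction. The 2 at both levels were Gdf15, which encodes a stress cytokine, and Sesn1, a sestrin gene named after its values were seen. Sesn1 rose by 0.19 and 0.30 on the log2 scale (adjusted p = 0.0435 and 0.0309 by edgeR). The 3 that fell at 94 dB were Pml, Rrm2b and Polk, also named after their values were seen. They stood at -0.33, -0.32 and -0.27 (adjusted p = 0.00372, 0.00757 and 0.0430 by edgeR). Gdf15 read 1.35 to 2.15 CPM in the 70 dB libraries, 3.16 to 4.56 in the 94 dB and 3.49 to 3.98 in the 105 dB libraries, without overlap with the controls (log2 fold changes 1.08 and 1.11; adjusted p = 4.68e-04 and 0.00182 by edgeR). The death effector gene Bax, Phlda3, an inhibitor of AKT, and the nuclease gene Aen rose at 94 dB by 0.85, 0.67 and 0.34 on the log2 scale. At 105 dB their values were 0.31, 0.16 and 0.0028, none of which passed, and each was lower at 105 than at 94 dB (adjusted p = 0.0276 for Bax, 0.00884 for Phlda3 and 0.00437 for Aen). Bax read 63.3 and 60.8 CPM in 94 dB replicates 3 and 4 against 39.3 and 43.6 in replicates 1 and 2, and without replicates 3 and 4 its 105 to 94 dB difference had an adjusted p of 0.357 (Phlda3, 0.194). The 94 dB values of Bax and Phlda3 were 0.53 and 0.41 without those libraries. With the GC and length trend removed they were 0.36 and 0.21, and that of Gdf15 was 0.71. Phlda3 then lost its 94 dB call (0.0889), and Bax and Phlda3 their 105 to 94 dB calls (0.246 and 0.242). Bax also lost this call without 94 dB replicate 3 (0.0828) or 4 (0.0828) or 105 dB replicate 1 (0.0740), 2 (0.0698) or 4 (0.0833).

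Of 16 tested genes for p53 and its regulators none rose and 1 fell at 94 dB, the acetyltransferase gene Kat5, and none passed at 105 dB. Over all genes 26.1% passed at 94 dB and 1.62% at 105 dB. Kat5 stood at -0.19 on the log2 scale (adjusted p = 0.0437 by edgeR), and the call ended when any 1 of the 12 libraries was left out, other than 94 dB replicate 4 or 105 dB replicate 3 (adjusted p up to 0.128). With the GC and length trend removed Kat5 was at -0.29 and called. Trp53 itself had log2 fold changes of -0.023 and 0.078 (adjusted p = 0.846 and 0.588), and Mdm4, the relative of Mdm2, had -0.0098 and 0.095 (adjusted p = 0.940 and 0.545). In this list 5 of 16 were higher at 105 than at 94 dB, where 8.06% of all genes were, and none of the 5 calls was left without 94 dB replicates 3 and 4. Among them was Ppm1d, a phosphatase gene that p53 induces, at 0.29 (adjusted p = 0.0115); without those 2 libraries it was 0.28 (adjusted p = 0.125).

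The BTG and TOB relatives with the CCR4-NOT complex held the listed gene with the smallest adjusted p. Tob2, which like Btg2 encodes an antiproliferative protein that recruits CCR4-NOT, read 47.6, 50.6, 54.8 and 42.9 CPM at 70 dB, 107, 110, 113 and 104 at 94 dB and 109, 113, 102 and 104 at 105 dB. Control and noise libraries lay far apart, with log2 fold changes of 1.14 and 1.13 (SE 0.073 each; adjusted p = 2.14e-07 and 2.05e-07 by edgeR) that were called under all 22 alternatives. Tob1 and Btg3 did not pass (0.14 and -0.19 at 94 dB, 0.11 and 0.040 at 105 dB). Over all genes 26.1% were called at 94 dB and 1.62% at 105 dB. Of all 17 genes in this list 2 rose and 2 fell at 94 dB and Tob2 alone was called at 105 dB. The other gene that rose, the arginine methyltransferase gene Prmt1, was called at 0.20 (adjusted p = 0.0468) and lost its call in 17 of 22 alternatives. The deadenylase genes Cnot7 and Cnot6 fell at 94 dB by 0.34 and 0.34 on the log2 scale, and both calls ended with the GC and length trend removed (-0.067 and -0.093; adjusted p = 0.501 and 0.328) and without 94 dB replicates 3 and 4, where the values were -0.31 and -0.26 (adjusted p = 0.0509 and 0.0985).

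Among the polo-like kinases Plk3, a stress-induced relative of Plk2, rose from 8.85 to 9.999 CPM over the 70 dB libraries to 13.3 to 17.0 after 94 dB and 13.5 to 15.6 after 105 dB (log2 fold changes 0.62 and 0.64; adjusted p = 4.42e-04 and 0.00171 by edgeR). With the GC and length trend removed the 94 dB value of Plk3 was 0.37 and was still called. Plk2 and Plk3 thus changed in opposite directions at 94 dB, while Plk1, Plk4 and Plk5 did not pass against 70 dB. Of 7 family relatives of Plk2, Ccng1 and Trp53inp1, Plk3 alone was called at either level. Over all genes 26.1% were called at 94 dB and 1.62% at 105 dB. Of 14 partners of GADD45 proteins 4 rose and 2 fell at 94 dB and 1 rose at 105 dB. That gene, Map2k6, encodes the p38 kinase kinase MKK6 and rose at both levels, by 0.47 and 0.49 on the log2 scale (adjusted p = 0.00248 and 0.0125 by edgeR). At 94 dB Map2k3 and Pcna rose as well, by 0.39 and 0.28 (adjusted p = 0.00103 and 0.0196 by edgeR). The 2 that fell there were Map2k4 at -0.41 and Mapk8 at -0.33 (adjusted p = 6.04e-04 and 0.0086 by edgeR). Map2k4 kept its 94 dB call under all 22 alternatives. Pcna and Mapk8 were named after their values were seen. Gadd45gip1, whose product binds GADD45 proteins and the mitochondrial ribosome, rose at 94 dB from 9.75 to 11.1 CPM over the controls to 18.9, 20.03, 27.5 and 28.2, and read 10.2 to 13.3 at 105 dB. Its difference between the noise levels was -1.02 on the log2 scale (adjusted p = 5.35e-04). Of 12 CDK inhibitors and pocket proteins 2 rose and 2 fell at 94 dB, where 26.1% of all genes were called. Among them Cdkn2d, which encodes the CDK inhibitor p19INK4d, was at 0.72 on the log2 scale and the retinoblastoma gene Rb1 at -0.53. Once the GC and length trend was removed they were at 0.45 and -0.32, both still called. Foxo1, the other gene that fell, was at -0.30 (adjusted p = 0.0118 by edgeR). Its call was lost with that trend removed (0.0902) and without 94 dB replicates 3 and 4 (0.163). Cdkn1b and Cdkn1c, the relatives of Cdkn1a, did not pass at either level. They were at -0.092 and 0.092 at 94 dB and at -0.076 and 0.030 at 105 dB. At 105 dB only the transcription factor gene Foxo3 passed, at 0.33 (adjusted p = 0.0148; 0.0578 without 70 dB replicate 4 and 0.0735 without 105 dB replicate 2).

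**Figure D4:**
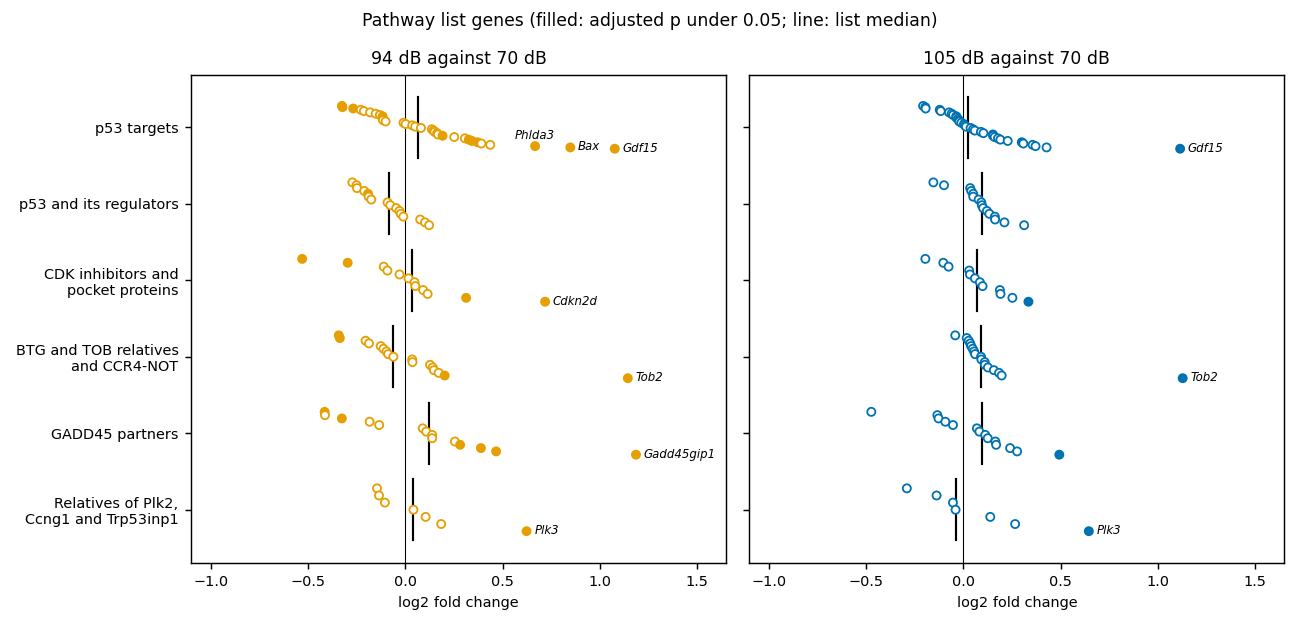
Log2 fold change (horizontal axis) of the genes of 6 pathway lists at 94 dB (left) and 105 dB (right) against 70 dB; each point is a gene, filled where the adjusted p was under 0.05, and lines are list medians. Tob2, Gdf15 and Plk3 are called at both levels, while Bax, Phlda3, Cdkn2d and Gadd45gip1 are filled at 94 dB and open at 105 dB.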

How the data were processed

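Cochlear RNA of 12 mouse libraries was sequenced, and the authors deposited whole-number read counts per Ensembl gene, not normalised. The submitters' processing notes list CASAVA, STAR, featureCounts 1.5.0-p3 and mm10. Their settings, the gene models and strand handling were not given in the sources used here. Groups and replicate numbers are from the sample titles. Symbols, positions and exon lengths are from GENCODE M21 on GRCm38 (mm10), and GC content is from its longest transcript of each gene.

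Counts were tested with edgeR 4.0.16 in R 4.3.3: filterByExpr (minimum count 10; 19497 genes, 99.9% of counts), TMM factors, a mean per group over 12 libraries (9 degrees of freedom left; common dispersion as a coefficient of variation, 0.134), robust glmQLFit, glmQLFTest, and Benjamini-Hochberg adjustment over all genes tested at 0.05. The procedure was tested on simulated data. CPM per kb divides CPM by exon length. Fold changes are those of the fit, and standard errors come from the F statistic. Members, lists, tests and the rule for named genes (all members, the 4 smallest p of each list, family relatives, and 3 genes most like each member) were chosen with earlier results of these data known. Alternatives were other scalings and filters, 8 libraries, a replicate block, a GC and length trend fitted per library by splines over 14943 genes, DESeq2 1.42.0, and libraries left out.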

Additional observations from a re-analysis of the deposited data

How the results depend on the processing

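Gadd45g and Btg2 (both noise levels), Trp53inp1 (both) and Cdkn1a (105 dB) kept their calls in all 22 alternatives. The alternatives for listed genes were chosen after seeing the data. The members had at least 414 counts in each library; whether depth kept any from passing was not tested. The cause of the changes below was not tested.

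With the GC and length trend removed, no member (0) was called between 105 and 94 dB, nor with the replicate block added (0), nor without 94 dB replicates 3 and 4 (0); at an unadjusted p under 0.05 the first edgeR fit had 3 members and the last 2, and DESeq2 called 1. Over all genes the 94 dB count of 5085 was 3226 with the trend removed and 1610 without those 2 libraries. The 105 dB count of 316 was 523 without a filter, 479 with a replicate block, 670 with block and trend removal, and 891 by DESeq2. The 105 to 94 dB count of 3372 was 1914 with the trend removed, 2044 with the block as well, and 217 without the 2 libraries. Upper-quartile factors turned the 94 dB split from 2716 higher and 2369 lower to 2329 and 2847. Of the 100 listed genes 26 were called at 94 dB (14 without the 2 libraries), 6 at 105 dB (10 with block and trend removal) and 25 between them (12 with the trend removed, 13 with the block as well, 2 without the 2 libraries). Over all genes the main fit called 26.1%, 1.62% and 17.3% in these comparisons. Without the 2 libraries 7.97% were called at 94 dB and 1.07% between the noise levels.

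Signs of log2 fold changes turned as follows. At 94 dB, with the trend removed and then with the block as well, Gadd45a was -0.02583 and -0.02603, Gadd45b -0.2275 and -0.2289 (-0.09276 without the 2 libraries) and Mdm2 0.02001 and 0.0216. At 105 dB Gadd45b was -0.07249 and -0.07433, and Ccng1 -0.005319 with upper-quartile factors. Between the noise levels Gadd45b was 0.155 and 0.1545 and Btg1 -0.1091 and -0.1119. Without the 2 libraries Gadd45b was 0.1149, Gadd45g -0.0259, Btg1 -0.02927 and Plk2 0.01233, and Plk2 was 0.005725 with upper-quartile factors.

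Leaving out 1 library at a time gave 5 to 6, 4 to 5 and 0 to 1 members in the 3 comparisons, 3452 to 5409, 126 to 399 and 1650 to 3798 genes in all (126 without 105 dB replicate 2, 1650 without 94 dB replicate 3), and 21 to 29, 4 to 6 and 13 to 28 listed genes (13 without 94 dB replicate 3 or 4 or 105 dB replicate 2). At 105 dB the log2 fold change then ran from -0.1172 to 0.04152 for Gadd45a, -0.003908 to 0.07428 for Gadd45b and -0.03367 to 0.08249 for Ccng1. Between the noise levels it ran from -0.1163 to 0.01484 for Gadd45b, -0.08836 to 0.08229 for Gadd45g, -0.08786 to 0.06511 for Btg2 and -0.0816 to 0.06861 for Plk2.

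The labels give no shared source to libraries with the same replicate number. Over 12 such pairs the correlation of deviations from group means was -0.149 to 0.182, above 0.1 in 3, all of replicate 2, and 5 correlated best with their own number. The replicate block alone gave 6, 4 and 1 members.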
